A study of Sus scrofa with 9 samples.

Results

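The 28 genes described here encode enzymes and carriers that feed, run or branch from the tricarboxylic acid (TCA) cycle. They were taken as the rows of the deposited count table whose gene symbol is on a list of such enzymes, and 28 of the 30942 genes in the table matched, each by 1 row. All 28 passed the filter on low counts and are among the 14846 genes tested. RNA was measured in hearts of wild-type (WT) miniature pigs in 3 groups of 3 libraries: doxorubicin plus formononetin (also called the combination), doxorubicin alone, and vehicle. Doxorubicin is an anthracycline chemotherapy drug known for harming heart muscle, and formononetin is a plant isoflavone. All animals shared the WT genotype, doxorubicin was given in both drug groups, and no sample analysed here had formononetin alone. The sources used here do not give the dose, route, duration, age, sex or sampled region of the heart. They also do not say whether each library stands for its own animal, so the p-values below rest on a spread between libraries that could be technical in part or in full.

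In the TCA cycle, acetyl groups from pyruvate, fatty acids, ketone bodies and amino acids are joined to oxaloacetate and oxidised stepwise, and the electrons pass to the respiratory chain. Its pace in heart muscle is known to be set mainly at isocitrate dehydrogenase and 2-oxoglutarate dehydrogenase, while the pyruvate dehydrogenase complex controls the entry of pyruvate. The heart also oxidises ketone bodies, and moves cytosolic reducing power into mitochondria through the malate-aspartate shuttle. Many genes of mitochondrial energy metabolism are known targets of estrogen-related receptors, the factor family named in the title of the study.

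Library totals ranged from 16291952 to 17549359 counts. Replicate 2 of doxorubicin plus formononetin differed from the rest: 14766 genes had a count in it, against 18107 to 19304 in the other libraries. Over genes, the lowest correlation with a library of the same group did not single it out. That value was 0.945 for combination replicates 2 and 3 and 0.957 for combination replicate 1. In the doxorubicin and vehicle libraries it was 0.981 to 0.988. Mitochondrially encoded genes took 22.04% to 28.8% of counts with doxorubicin plus formononetin, 23.3% to 24.4% with doxorubicin and 20.7% to 21.3% with vehicle. Leaving them out of the fit changed none of the calls among the 28 genes. Transcripts of heart muscle cells were abundant in all 9 libraries. The 14 cardiomyocyte markers found summed to 65630 to 71979 counts per 1e+06 scaled counts (CPM) with doxorubicin plus formononetin, 50399 to 60314 CPM with doxorubicin and 74944 to 85460 CPM with vehicle. These CPM values, like those below, were scaled between libraries by the trimmed mean of M-values (TMM). Together the 28 genes took 1.25% ± 0.05 of all counts with doxorubicin plus formononetin, 1.21% ± 0.08 with doxorubicin and 1.21% ± 0.05 with vehicle (SD, n = 3 each), so the sum over them moved by less than its spread.

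Per kilobase of the deposited gene length, the levels spanned a wide range. In vehicle hearts MDH1, the cytosolic malate dehydrogenase, was highest at 824 ± 50.1 CPM per kilobase. MDH2, its mitochondrial counterpart, followed at 655 ± 48.3, and IDH2, the mitochondrial NADP-dependent isocitrate dehydrogenase, at 532 ± 52.1 CPM per kilobase. Next came the mitochondrial aspartate aminotransferase GOT2 at 432 ± 29.8 and OXCT1, which activates acetoacetate for oxidation, at 324 ± 33.8 CPM per kilobase. At the low end stood the cytosolic aconitase ACO1 at 21.8 ± 1.37 and pyruvate carboxylase PC, which replenishes oxaloacetate, at 3.98 ± 0.72 CPM per kilobase. Several neighbours in this order lay within each other's spread. OXCT1, SUCLG1 (302 ± 14.8) and GOT1 (299.9 ± 20.0 CPM per kilobase) were such a run, and CS, DLD, OGDH, DLST and ACAT1 formed another between 161 and 178 CPM per kilobase.

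**Figure D1:**
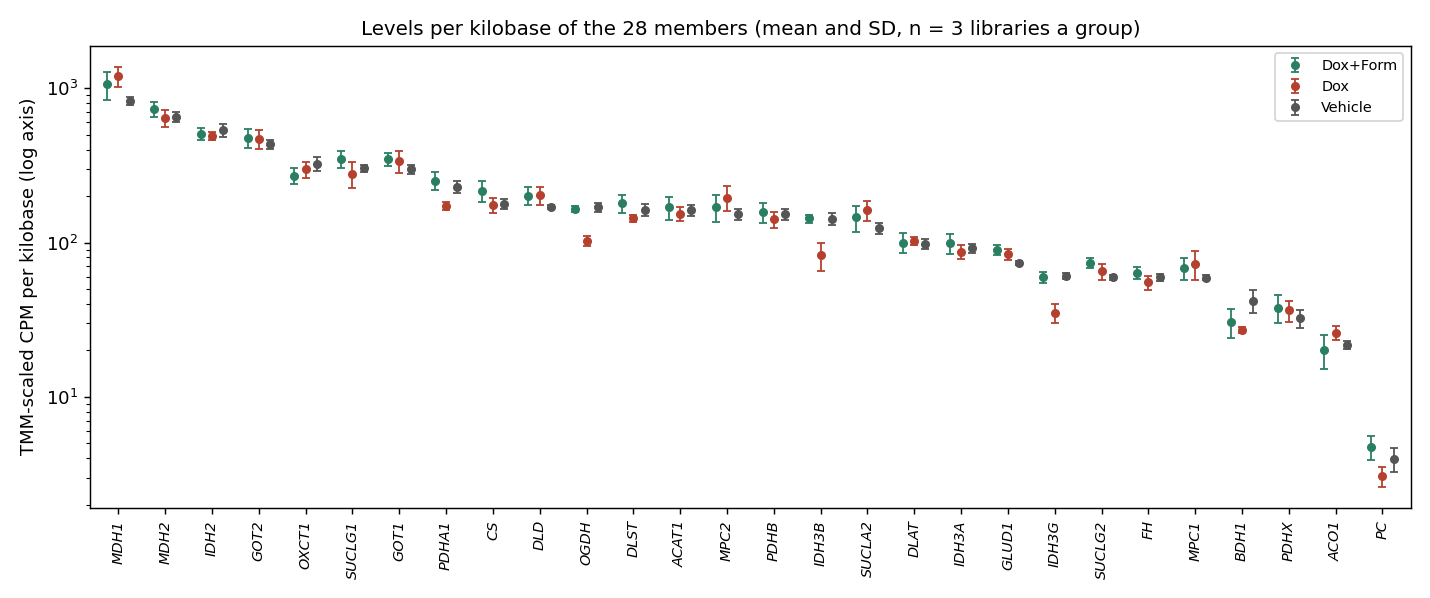
Levels of the 28 genes in TMM-scaled CPM per kilobase (log axis), as mean and SD of 3 libraries in each group, ordered by the vehicle mean. The vehicle means run from 824 for MDH1 to 3.98 CPM per kilobase for PC. The doxorubicin means of OGDH, IDH3B and IDH3G lie below both other groups, as do those of other genes, by less for CS and MDH2.

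Doxorubicin alone was first set against vehicle. OGDH, IDH3B, IDH3G, PDHA1 and BDH1 fell, MDH1 rose, and the other 22 genes did not pass the test. The 3 largest falls were in a catalytic subunit of 2-oxoglutarate dehydrogenase and in 2 subunits of NAD-dependent isocitrate dehydrogenase, and measured 39.3% to 42.5%. The threshold was an adjusted p of 0.05 in the edgeR quasi-likelihood test with Benjamini-Hochberg adjustment over all genes tested, which stands behind every adjusted p below unless another test is named. With 6 of 28 called, or 21.4%, the share was below the 33.3% called among all genes tested. The background was 17.0% for genes that fell and 16.3% for genes that rose. The median log2 fold change was -0.05 over the 28 genes, close to 0 as over all genes tested (-0.002).

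OGDH encodes the E1 subunit that decarboxylates 2-oxoglutarate, and lies on chromosome 18 from 50609415 to 50684990 (gene 100515636, minus strand, Sscrofa11.1). Its level was 441, 501 and 494.5 CPM in the doxorubicin libraries, against 836, 798 and 732 CPM with vehicle. All 3 doxorubicin values lay below the lowest vehicle value. The log2 fold change was -0.72 ± 0.10 (SE; adjusted p = 3.98e-04). The other subunits of the same complex did not pass: DLST, the E2 core, was at -0.18 ± 0.12 (adjusted p = 0.269), and DLD, the E3 subunit shared with pyruvate dehydrogenase, at 0.25 ± 0.13 (adjusted p = 0.145).

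NAD-dependent isocitrate dehydrogenase is built from catalytic alpha subunits with beta and gamma subunits, and the beta and gamma subunit genes fell. IDH3B, the beta subunit (gene 733641, chromosome 17, 32955061 to 32960110, plus strand), had 111, 119 and 161 CPM with doxorubicin, against 234, 238 and 202 CPM with vehicle. IDH3G, the gamma subunit (gene 100525850, X chromosome, 124528643 to 124537570, minus strand), had 54.1, 62.6 and 71.2 CPM with doxorubicin, against 108, 115 and 104 CPM with vehicle. The groups did not overlap for either gene. The log2 fold changes were -0.78 ± 0.14 for IDH3B (adjusted p = 0.00175) and -0.80 ± 0.12 for IDH3G (adjusted p = 6.00e-04). IDH3A, the catalytic alpha subunit, was at -0.07 ± 0.13 (adjusted p = 0.719), with a 95% interval from -0.34 to 0.21 that leaves out falls of the size of IDH3B and IDH3G. IDH2, which runs the same step with NADP in mitochondria, was at -0.12 ± 0.11 (adjusted p = 0.437).

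In the pyruvate dehydrogenase complex, PDHA1, the alpha subunit of E1 and the site of inhibitory phosphorylation (gene 100294678, X chromosome, 15699924 to 15718908, plus strand), was the member that fell. It had 646, 728 and 706 CPM with doxorubicin, against 988, 935 and 837 CPM with vehicle, and the groups did not overlap. The log2 fold change was -0.41 ± 0.12 (adjusted p = 0.0207). That call was lost without vehicle replicate 1, vehicle replicate 2 or doxorubicin replicate 1 (highest adjusted p = 0.0946). PDHB, DLAT and PDHX, for the beta subunit, the E2 core and the E3-binding protein, lay between -0.11 and 0.17 with adjusted p from 0.475 to 0.757. The pyruvate carrier genes MPC1 and MPC2 were at 0.29 ± 0.15 and 0.36 ± 0.16 (adjusted p = 0.172 and 0.108). For both carriers the doxorubicin libraries all lay above the vehicle libraries, yet neither passed. MPC2 stayed uncalled in 16 of 17 alternatives, and passed with only the 2 groups compared (adjusted p = 0.0470).

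MDH1 (gene 396894, chromosome 3, 78247229 to 78263085, minus strand), the cytosolic arm of the malate-aspartate shuttle, was the gene that rose. It had 1048, 1166 and 1392 CPM with doxorubicin, against 878, 823 and 778 CPM with vehicle. The groups did not overlap, and the log2 fold change was 0.54 ± 0.16 (adjusted p = 0.0205). The call was lost without vehicle replicate 2, vehicle replicate 3 or doxorubicin replicate 3 (highest adjusted p = 0.0828). Its shuttle partners did not pass: MDH2 was at -0.02 ± 0.12, GOT1 at 0.17 ± 0.13 and GOT2 at 0.12 ± 0.13.

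Among ketone body genes, BDH1 (gene 100511473, chromosome 13, 132602372 to 132647271, plus strand), which oxidises 3-hydroxybutyrate to acetoacetate, fell. It had 125, 118 and 130.1 CPM with doxorubicin, against 231, 173 and 176 CPM with vehicle, without overlap. The log2 fold change was -0.63 ± 0.16 (adjusted p = 0.0114), and -0.48 without vehicle replicate 1, where the call was lost (adjusted p = 0.0612). OXCT1 and ACAT1, which carry out the 2 later steps of ketone use, were at -0.13 ± 0.13 and -0.08 ± 0.14 and did not pass.

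The remaining genes did not pass with doxorubicin. Citrate synthase CS, which opens the cycle, was at -0.03 ± 0.13, and fumarase FH at -0.11 ± 0.11. SUCLA2, the ATP-linked beta subunit of succinyl-CoA ligase, was at 0.39 ± 0.15 (adjusted p = 0.0663), with the doxorubicin libraries all above the vehicle libraries. It passed in 4 of 17 alternatives, among them the fit without the second doxorubicin plus formononetin library (adjusted p = 0.0198). The GTP-linked subunit SUCLG2 was at 0.13 ± 0.11 and the shared alpha subunit SUCLG1 at -0.12 ± 0.14. In all, the 2 groups did not overlap for 12 of the 28 genes, 7 higher and 5 lower with doxorubicin, where 55.3% of all genes tested did not overlap.

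**Figure D2:**
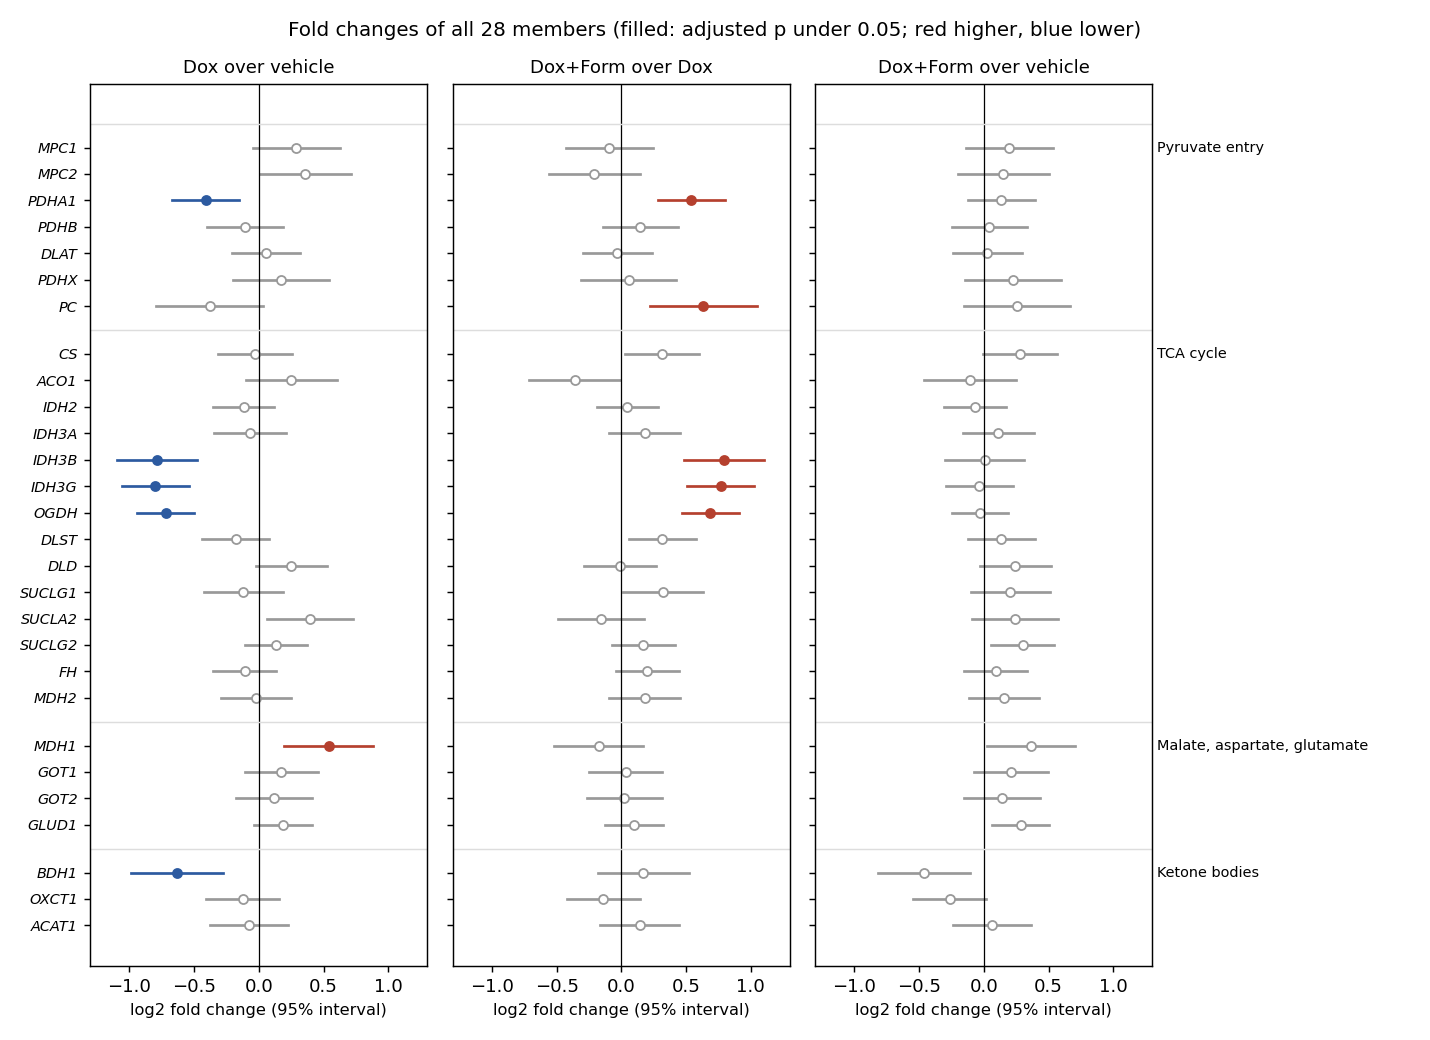
Log2 fold changes with 95% intervals for the 28 genes in the 3 comparisons, grouped by role. Filled points passed the test: 5 lower and 1 higher for doxorubicin over vehicle, 5 higher for doxorubicin plus formononetin over doxorubicin, and none for doxorubicin plus formononetin over vehicle.

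Cardiomyocyte markers also differed between the groups. Of 14 tested, 10 fell and PLN rose with doxorubicin against vehicle, with a median log2 fold change of -0.59 (-0.05 over the 28 genes). With doxorubicin plus formononetin against doxorubicin 7 rose and none fell, with a median of 0.41 (0.14 over the 28 genes). Against vehicle none of the 14 passed. The called shares in the first 2 comparisons were 78.6% and 50%, beside 33.3% and 28.1% of all genes tested. In bulk tissue, fewer cells of a type and less RNA per cell cannot be told apart, and the part of cell makeup in the results here was not tested. Endothelial markers fell in 5 of 10 cases with doxorubicin against vehicle (50%), and 4 rose with the combination against doxorubicin (40%). Their sum was 1682 to 1953 CPM with doxorubicin plus formononetin, 1143 to 1313 CPM with doxorubicin and 1425 to 2019 CPM with vehicle.

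Immune and stromal markers were measured in the same way, with the share called in brackets. Of all genes tested, 33.3% passed with doxorubicin against vehicle, 28.1% with the combination against doxorubicin and 1.76% with the combination against vehicle. Macrophage markers rose in 2 of 9 cases with doxorubicin against vehicle (22.2%) and fell in 3 with the combination against doxorubicin (33.3%). They summed to 233 to 271 CPM with doxorubicin plus formononetin, 291 to 319 CPM with doxorubicin and 164 to 290 CPM with vehicle. None of 4 tested lymphocyte markers passed in any comparison, and all 7 summed to at most 15.3 CPM in any library. Fibroblast markers overlapped between groups in their sums, at 2278 to 5206 CPM with doxorubicin plus formononetin, 2148 to 3091 CPM with doxorubicin and 2066 to 3601 CPM with vehicle. Of 10 fibroblast markers, 2 rose and 3 fell with doxorubicin (50%), while 4 rose and 2 fell with the combination against doxorubicin (60%). Smooth muscle and pericyte markers fell in 3 of 8 cases with doxorubicin (37.5%), and with the combination against doxorubicin 3 rose and 1 fell (50%). Of 6 adipocyte markers tested, 3 fell and 1 rose with doxorubicin (66.7%), and LEP was at 0 in the combination libraries. Schwann cell markers rose in 5 of 6 cases with the combination against doxorubicin (83.3%) and in 3 of 6 against vehicle (50%). Their sums were 73.6 to 151 CPM with doxorubicin plus formononetin, 38.8 to 52.5 CPM with doxorubicin and 49.2 to 60.7 CPM with vehicle.

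Doxorubicin plus formononetin was next set against doxorubicin alone, which asks what formononetin added to the drug. IDH3B, IDH3G, OGDH, PDHA1 and PC rose, none of the 28 fell, and 23 did not pass. The called share was 17.9%, below the 28.1% of all genes tested. The background was 14.7% for genes that rose and 13.5% for genes that fell. The median log2 fold change was 0.14 over the 28 genes and -0.01 over all genes tested. At an unadjusted p under 0.05, 8 were higher and 1 was lower. The groups did not overlap for 6 of the 28, all higher with the combination, where 42.2% of all genes tested did not overlap. This comparison and the one of doxorubicin with vehicle share the doxorubicin libraries, so a low value there by itself makes one fall and the other rise, and the values are given side by side without a count of genes shared.

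OGDH had 769.8, 806 and 739 CPM with doxorubicin plus formononetin, against 441, 501 and 494.5 CPM with doxorubicin. Each combined-treatment library lay above each doxorubicin library, and the log2 fold change was 0.69 ± 0.10 (adjusted p = 7.68e-04). IDH3B had 232, 211 and 235 CPM, against 111, 119 and 161 CPM with doxorubicin, a log2 fold change of 0.79 ± 0.14 (adjusted p = 0.00233). IDH3G had 114, 96.9 and 108 CPM, against 54.1, 62.6 and 71.2 CPM with doxorubicin, a log2 fold change of 0.77 ± 0.12 (adjusted p = 0.00119). These 3 genes passed in all 17 alternatives, including the fit without combination replicate 2, in which the fewest genes were detected, and their groups did not overlap.

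PDHA1 had 1033, 866 and 1128 CPM with doxorubicin plus formononetin, against 646, 728 and 706 CPM with doxorubicin. The groups did not overlap, and the log2 fold change of 0.54 ± 0.12 (adjusted p = 0.00667) also passed in all 17 alternatives. PC (gene 397630, chromosome 2, 5566608 to 5587797, plus strand) had 16.2, 19.9 and 14.2 CPM, against 9.21, 12.3 and 10.9 CPM with doxorubicin. It rose by a log2 fold change of 0.63 ± 0.19 (adjusted p = 0.0279), and the groups did not overlap. The PC call was lost without doxorubicin replicate 1 or 3 or doxorubicin plus formononetin replicate 1 or 2 (highest adjusted p = 0.105). LRFN4, which lies within PC on the opposite strand, was at 1.12 ± 0.47 in the same comparison (adjusted p = 0.1003), with counts that summed to 10.8% of those of PC over the 9 libraries. Against vehicle, PC did not pass with doxorubicin (-0.38 ± 0.19, adjusted p = 0.145) or with the combination (0.25 ± 0.19, adjusted p = 0.525).

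The genes below the threshold differed in direction. DLST was at 0.32 ± 0.12 (adjusted p = 0.067), CS at 0.31 ± 0.13 (adjusted p = 0.0957) and SUCLG1 at 0.32 ± 0.14 (adjusted p = 0.107). Without the second doxorubicin plus formononetin library all 3 passed, at 0.41 for DLST (adjusted p = 0.022), 0.42 for CS (adjusted p = 0.0263) and 0.43 for SUCLG1 (adjusted p = 0.0432). MDH1 was at -0.18 ± 0.16, with 1194, 812 and 1187 CPM, against 1048, 1166 and 1392 CPM with doxorubicin. The low value of 812 CPM came from combination replicate 2, and the 2 groups overlapped. BDH1 was at 0.17 ± 0.16, with 147, 107 and 167 CPM, against 125, 118 and 130.1 CPM with doxorubicin, and the groups overlapped as well. GOT1, GOT2, GLUD1, DLD, DLAT, PDHX and IDH2 lay between -0.03 and 0.10.

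ACO1, the cytosolic aconitase that also serves as an iron sensor, was at -0.36 ± 0.16 (adjusted p = 0.118), and passed without doxorubicin plus formononetin replicate 3 (-0.57, adjusted p = 0.0113). Its gene overlaps DDX58, a viral RNA sensor on the opposite strand, over 38319 bases. DDX58 averaged 31.2 ± 2.72 CPM with doxorubicin plus formononetin, 126 ± 13.7 CPM with doxorubicin and 19.6 ± 2.79 CPM with vehicle (SD, n = 3 each). ACO1 averaged 72.8 ± 18.4 CPM with doxorubicin plus formononetin, 93.4 ± 9.70 CPM with doxorubicin and 78.5 ± 4.95 CPM with vehicle. Whether the counting used strand is not given in the sources used here, so reads of these 2 genes may not have been told apart. Of the other called genes, IDH3B and IDH3G overlap opposite-strand neighbours by 12 to 26 bases, PDHA1 overlaps MAP3K15 by 2011 bases with counts of 0.698% of its own, and OGDH, MDH1 and BDH1 overlap none.

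**Figure D3:**
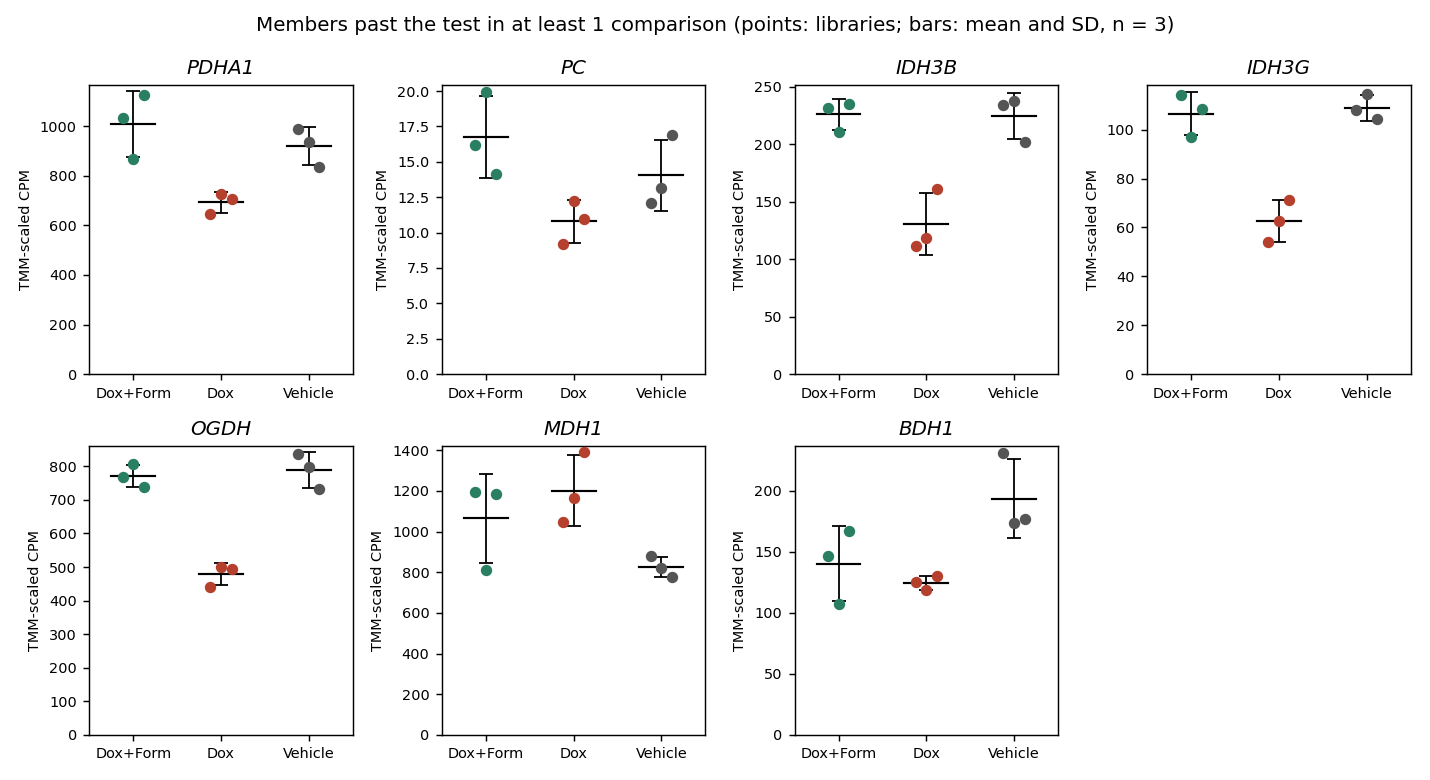
Levels by library, in TMM-scaled CPM from a zero baseline, of the 7 genes that passed in at least 1 comparison; bars give mean and SD of 3 libraries. In OGDH, IDH3B, IDH3G and PDHA1 the 3 doxorubicin libraries lie below all 6 others, while in MDH1 they lie above the vehicle libraries and in BDH1 below them.

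Doxorubicin plus formononetin was finally set against vehicle. None of the 28 genes passed by the edgeR test, by DESeq2 or by limma-voom, where 1.76% of all genes passed the edgeR test. The background was 0.956% for genes that rose and 0.808% for genes that fell. At an unadjusted p under 0.05, 3 genes were higher and 1 was lower. The median log2 fold change was 0.14 over the 28 genes and -0.01 over all genes tested. The groups did not overlap for 4 of the 28, where 23.6% of all genes tested did not.

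For 4 of the 5 genes that fell with doxorubicin, all but BDH1, the interval of the difference from vehicle spanned 0. OGDH averaged 772 ± 33.3 CPM with doxorubicin plus formononetin and 789 ± 52.8 CPM with vehicle, with a 95% interval of the log2 fold change from -0.25 to 0.18. IDH3B averaged 226 ± 13.3 CPM with the combination and 225 ± 19.9 CPM with vehicle, with an interval from -0.30 to 0.31. IDH3G averaged 106 ± 8.76 CPM with the combination and 109 ± 5.22 CPM with vehicle, with an interval from -0.29 to 0.22. None of these 3 intervals reaches the size of the fall with doxorubicin alone. PDHA1 averaged 1009 ± 133 CPM with the combination and 920.1 ± 76.5 CPM with vehicle, with an interval from -0.13 to 0.39. These values do not show that the levels were equal.

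BDH1 had the smallest p of the 28 in this comparison. It had 147, 107 and 167 CPM with doxorubicin plus formononetin, against 231, 173 and 176 CPM with vehicle. All combination values were below the vehicle values, but the log2 fold change of -0.46 ± 0.16 did not pass (adjusted p = 0.184). GLUD1, the mitochondrial glutamate dehydrogenase, had 278, 251 and 292 CPM with the combination, against 233, 225 and 217 CPM with vehicle. SUCLG2 had 157, 141 and 136 CPM with the combination, against 118, 122 and 112 CPM with vehicle. Both lay higher in all 3 combination libraries without passing, at 0.28 ± 0.10 for GLUD1 (adjusted p = 0.193) and 0.30 ± 0.11 for SUCLG2 (adjusted p = 0.205). MDH1 averaged 1064 ± 219 CPM with the combination and 826 ± 50.3 CPM with vehicle (0.36 ± 0.16, adjusted p = 0.271), and the groups overlapped. OXCT1 was at -0.26 ± 0.13 (adjusted p = 0.326), with no overlap.

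Ratios within a library depend little on how libraries are scaled, so 11 pairs of isozymes or partner subunits were compared as log2 ratios of CPM. With 3 against 3 libraries the exact two-sided permutation test cannot go below p = 0.1, and after adjustment over 33 tests none could pass (lowest adjusted p = 0.254). The values are therefore descriptions. The OGDH to DLST ratio was 0.36, 0.40 and 0.39 with doxorubicin, against 0.99, 0.83 and 0.97 with vehicle, and 0.75, 1.02 and 0.52 with doxorubicin plus formononetin against the same doxorubicin values. Doxorubicin libraries thus held the lowest OGDH to DLST ratios of the 9. The OGDH to DLD ratio averaged 0.05 ± 0.14 with doxorubicin and 1.01 ± 0.05 with vehicle, a difference of -0.96 (exact p = 0.1), the largest of the 33.

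Within pyruvate dehydrogenase, PDHA1 over PDHB averaged 1.68 ± 0.12 with doxorubicin and 1.98 ± 0.01 with vehicle. The combination libraries averaged 2.08 ± 0.05, above both other groups without overlap. IDH3A over IDH3B averaged 0.83 ± 0.39 with doxorubicin and 0.11 ± 0.09 with vehicle, and 0.20 ± 0.16 with the combination. MDH1 over MDH2 averaged -0.16 ± 0.04 with doxorubicin and -0.72 ± 0.05 with vehicle, a difference of 0.56 (exact p = 0.1). With the combination it averaged -0.53 ± 0.16, below the doxorubicin libraries (difference -0.37, exact p = 0.1) and overlapping vehicle. OXCT1 over BDH1 averaged 2.12 ± 0.22 with doxorubicin and 1.63 ± 0.09 with vehicle, without overlap (exact p = 0.1). SUCLA2 over SUCLG2 averaged 1.55 ± 0.10 with doxorubicin and 1.29 ± 0.07 with vehicle, also without overlap (exact p = 0.1). For both pairs the combination libraries overlapped each other group. PDHX over DLAT and IDH2 over IDH3A overlapped in every comparison. GOT1 over GOT2 differed by at most 0.07 between any 2 groups, and MPC1 over MPC2 by at most 0.13.

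**Figure D4:**
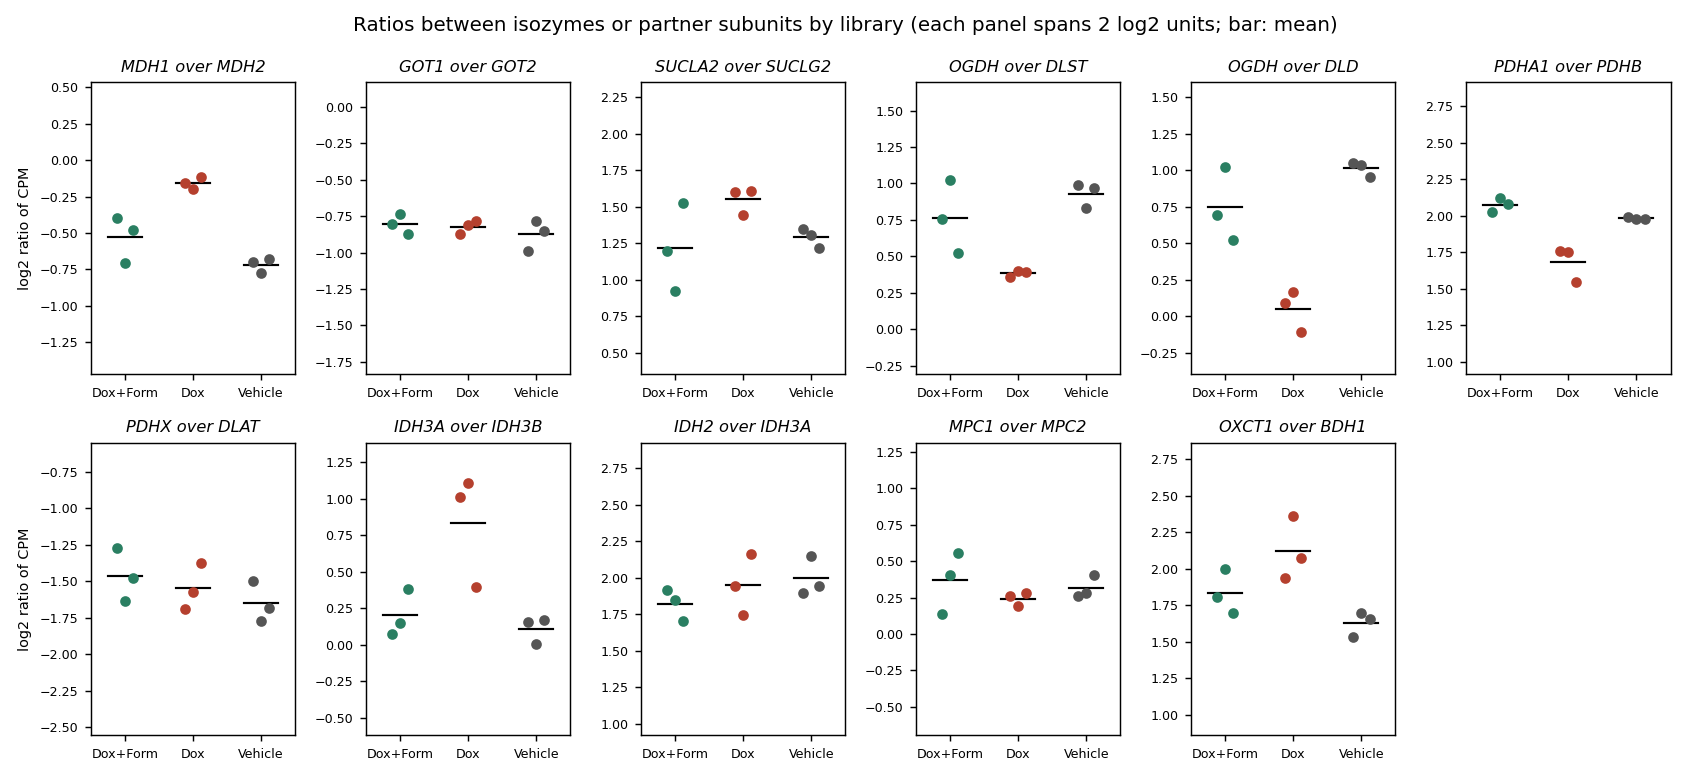
Log2 ratios of CPM by library for 11 pairs, each panel spanning 2 log2 units, with bars at the group mean of 3 libraries. The doxorubicin libraries are lowest for OGDH over DLST, OGDH over DLD and PDHA1 over PDHB, highest for MDH1 over MDH2 and IDH3A over IDH3B, and overlap both other groups for GOT1 over GOT2.

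Other genes of the cycle and of pyruvate use were taken from a list of 39, of which 33 were tested. With doxorubicin against vehicle 7 rose and 5 fell, and with doxorubicin plus formononetin against doxorubicin 7 rose and 3 fell. The called shares were 36.4% and 30.3%, close to the 33.3% and 28.1% called among all genes tested. Succinate dehydrogenase, which links the cycle to the respiratory chain, did not pass in any of its 4 subunits: SDHA, SDHB, SDHC and SDHD lay between -0.08 and 0.16 over the 3 comparisons. MRPS36, a small subunit of the 2-oxoglutarate dehydrogenase complex, rose with doxorubicin (0.52 ± 0.12, adjusted p = 0.00635). D2HGDH, which returns D-2-hydroxyglutarate to 2-oxoglutarate, fell with doxorubicin (-0.86 ± 0.11, adjusted p = 3.16e-04) and was higher with the combination than with doxorubicin (0.92 ± 0.11, adjusted p = 3.37e-04).

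Kinases that switch off PDHA1 by phosphorylation moved in different directions. PDK4 averaged 83.0 ± 17.6 CPM with doxorubicin plus formononetin, 292 ± 96.3 CPM with doxorubicin and 339 ± 70.4 CPM with vehicle. It fell with the combination against doxorubicin (-1.82 ± 0.26, adjusted p = 6.97e-04) and against vehicle (-2.03 ± 0.26, adjusted p = 0.00296). With doxorubicin alone against vehicle PDK4 was at -0.22 ± 0.25 (adjusted p = 0.542) and did not pass. PDK2 fell with doxorubicin against vehicle (-0.39 ± 0.10, adjusted p = 0.0111) and was higher with the combination than with doxorubicin (0.81 ± 0.10, adjusted p = 3.28e-04). With the combination against vehicle PDK2 was at 0.43 and did not pass, with 160, 172 and 158 CPM against 126, 126 and 113 CPM. It did pass there with DESeq2 and with the stricter filter on low counts (lowest adjusted p over the alternatives = 0.00377). PDK1 rose with doxorubicin against vehicle (0.36 ± 0.13, adjusted p = 0.0482), a call lost in 8 of 17 alternatives, among them limma-voom, the replicate block and the fits without any 1 vehicle library or without doxorubicin replicate 2 or 3 (highest adjusted p = 0.170). It was higher with the combination than with doxorubicin (0.52 ± 0.13, adjusted p = 0.011) and than with vehicle (0.88 ± 0.13, adjusted p = 0.0065). The PDK1 call against vehicle was lost in 1 of 17 alternatives, without vehicle replicate 3. PDK3, which the naming rule did not take and which is added to complete the kinases, rose with doxorubicin against vehicle (0.41 ± 0.12, adjusted p = 0.0253). That call was lost without any 1 vehicle library or without doxorubicin replicate 1 or 2 (highest adjusted p = 0.0878), and PDK3 did not pass in the other comparisons. LDHA, the lactate dehydrogenase subunit that favours lactate formation, averaged 42.4 ± 2.88 CPM with the combination, 89.3 ± 8.77 CPM with doxorubicin and 50.4 ± 3.89 CPM with vehicle. It rose with doxorubicin and fell with the combination against doxorubicin (-1.08 ± 0.11, adjusted p = 1.49e-04).

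Among 7 tested carriers of the malate-aspartate shuttle and of other dicarboxylates, 4 fell and 2 rose with doxorubicin against vehicle, and 3 rose and 1 fell with the combination against doxorubicin. The called shares of these 7 genes were 85.7% and 57.1%, beside 33.3% and 28.1% of all genes tested. This list, like the others here, was chosen with earlier results of these data known, so such shares do not measure enrichment. Some doxorubicin calls were also easily lost. SLC25A10 kept its call in 13 of 17 alternatives, SLC25A21 in 14 and SLC25A22 in 7 (highest adjusted p = 0.0754, 0.0936 and 0.144). SLC25A11, the malate and 2-oxoglutarate carrier, averaged 115 ± 14.9 CPM with doxorubicin and 202 ± 16.3 CPM with vehicle (-0.81 ± 0.13, adjusted p = 8.54e-04). It averaged 223 ± 25.5 CPM with the combination, higher than doxorubicin by 0.95 ± 0.13 (adjusted p = 5.62e-04). SLC25A13, one of the aspartate-glutamate carriers, rose by 1.24 ± 0.13 with doxorubicin (adjusted p = 1.09e-04) and was at -0.53 ± 0.13 for the combination against doxorubicin (adjusted p = 0.0107). With the combination SLC25A13 still passed as higher than vehicle (0.71), a call kept in 11 of 17 alternatives (highest adjusted p = 0.0974). The other aspartate-glutamate carrier, SLC25A12, did not pass in any comparison. The citrate carrier SLC25A1 fell with doxorubicin (-0.82 ± 0.16, adjusted p = 0.00268). It passed as higher with the combination than with doxorubicin (0.93) and did not pass for the combination against vehicle (0.12).

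Of 19 other ketone and glutamate genes, 6 fell and 2 rose with doxorubicin, and 4 rose and 4 fell with the combination against doxorubicin. The called share was 42.1% in each, beside 33.3% and 28.1% of all genes tested. The amino acid transporter SLC38A2 averaged 102 ± 7.28 CPM with the combination, 263 ± 24.9 CPM with doxorubicin and 112 ± 7.31 CPM with vehicle. All 3 doxorubicin libraries lay above the 6 others. ALDH4A1, which turns the proline product P5C into glutamate, fell with doxorubicin (-1.11 ± 0.14, adjusted p = 2.11e-04) and was higher with the combination than with doxorubicin (0.72 ± 0.13, adjusted p = 0.00317). The alanine aminotransferase GPT was at -0.45 ± 0.12 with doxorubicin (adjusted p = 0.0121, 0.0521 without doxorubicin replicate 1) and 0.59 ± 0.12 for the combination against doxorubicin (adjusted p = 0.00371). ALDH5A1, of the GABA shunt, fell with doxorubicin alone against vehicle (-0.87), a call kept in all 17 alternatives. For the combination against doxorubicin it was at 0.26 and did not pass. It was also lower with the combination than with vehicle (-0.60 ± 0.10, adjusted p = 0.0127). That last call was lost with the replicate block and without vehicle replicate 1 or 2 or combination replicate 1 (highest adjusted p = 0.0774).

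The regulators were read in the same fits. With doxorubicin against vehicle, ESRRA, encoding estrogen-related receptor alpha, fell by 0.94 on the log2 scale (adjusted p = 2.11e-04). PERM1, a muscle cofactor of these receptors, fell by 0.998 (adjusted p = 4.64e-04) and the coactivator gene PPARGC1B by 1.31 (adjusted p = 1.60e-04). PPARGC1A, which encodes a related coactivator, rose by 0.81 (adjusted p = 2.52e-04). ESRRG, encoding estrogen-related receptor gamma, rose by 0.43 (adjusted p = 0.0283), a call lost without vehicle replicate 2 or 3 or doxorubicin replicate 1 or 2 (highest adjusted p = 0.125). ESRRA averaged 137 ± 4.13 CPM with doxorubicin plus formononetin and 90.9 ± 8.35 CPM with doxorubicin (0.59 ± 0.11, adjusted p = 0.00354). Against vehicle, at 175 ± 21.6 CPM, the combination was at -0.35 ± 0.11 and did not pass (adjusted p = 0.156). PERM1 averaged 128 ± 13.9 CPM with the combination and 68.3 ± 9.70 CPM with doxorubicin (0.90 ± 0.14, adjusted p = 0.00123). The coactivator genes differed: PPARGC1B was at 0.03 ± 0.15 and PPARGC1A at -0.15 ± 0.10 for the combination against doxorubicin, neither of which passed. ESRRG was at -0.04 in that comparison and at 0.38 against vehicle, and did not pass in either. Against vehicle, PPARGC1B was lower with the combination (-1.28 ± 0.15, adjusted p = 0.00162) and PPARGC1A higher (0.66 ± 0.10, adjusted p = 0.00899), though the PPARGC1A call was lost without vehicle replicate 2 or 3 (highest adjusted p = 0.0645).

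**Figure D5:**
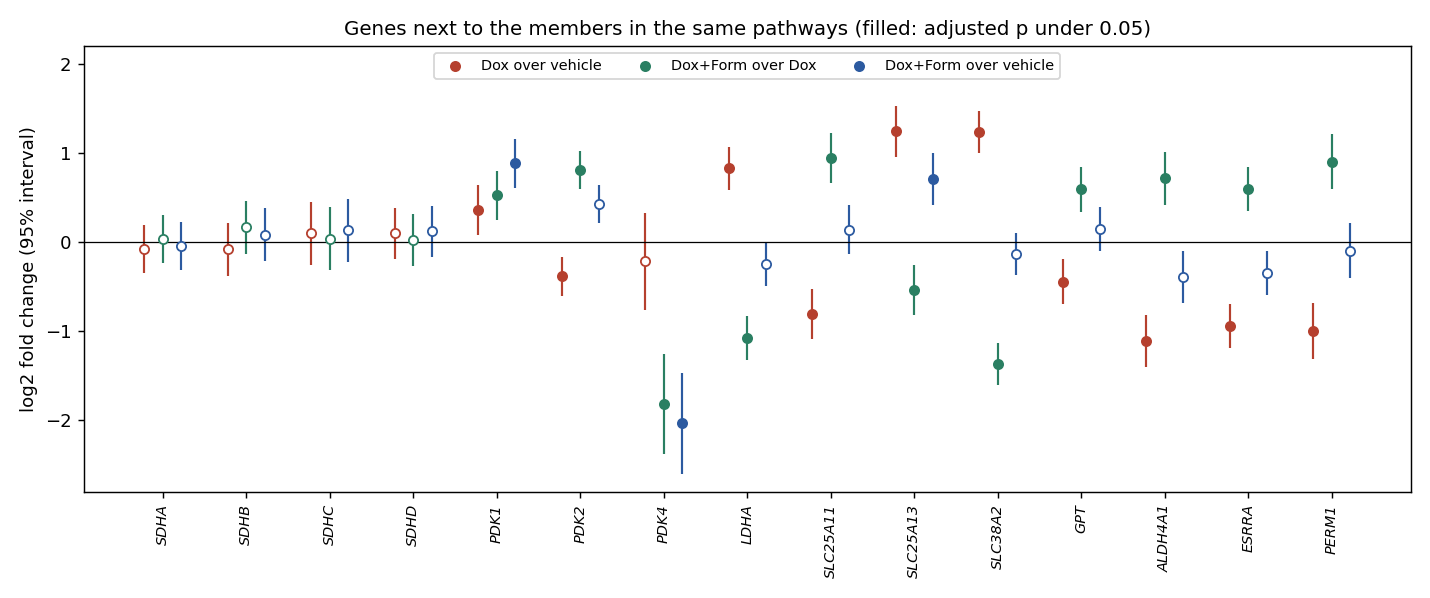
Log2 fold changes with 95% intervals of 15 genes outside the 28, chosen after their values were seen, with filled points past an adjusted p of 0.05. The 4 succinate dehydrogenase genes lie close to 0 in all comparisons, and PDK4 is lowest for the combination over doxorubicin (-1.82) and over vehicle (-2.03).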

How the data were processed

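The authors deposited 1 table of raw counts per gene for 9 libraries (RNeasy RNA, SMARTER mRNA libraries, per the labels' protocols); whole numbers summed to 16291952 to 17549359 per library. The sources used here do not give the aligner, counting program, strand handling or treatment of shared reads. Gene lengths, an other-unit column in bases, are those the authors deposited. Gene identifiers and start positions of all 28 genes matched the RefSeq table of Sscrofa11.1, so the deposited coordinates are given with that build.

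Genes were kept with filterByExpr (minimum count 10), library sizes scaled by TMM, and all 9 libraries fitted with 1 mean per group in edgeR 4.0.16 (R 4.3.3). Groups were compared by the quasi-likelihood F-test. Standard errors are the absolute log2 fold change over the square root of F, and intervals are 95%. CPM is the count per 1e+06 scaled counts, with SD over 3 libraries. Log2 ratios used a pseudocount of 0.5 CPM.

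The members and lists were chosen with earlier results of these data known. The rule for genes shown in full took members past an adjusted p of 0.05 in any comparison and the 3 with the smallest p in each; from other lists, up to 6 genes with the smallest p in each comparison, with SDHA to SDHD, PDK4, ESRRA, ESRRG, PPARGC1A and PPARGC1B always eligible. Marker lists covered cardiomyocytes, fibroblasts, endothelium, macrophages, smooth muscle and pericytes, adipocytes, lymphocytes and Schwann cells. Alternatives were other scalings, filters, DESeq2 1.42.0, limma-voom 3.58.1, 2-group fits, a replicate block, and each library left out. The procedure was tested on simulated counts. A gene that the rule also names is not reported here.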

Additional observations from a re-analysis of the deposited data

How the results depend on the processing

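The number of the 28 genes called stayed within 1.5 times of the reported number under each of 17 alternatives. For doxorubicin against vehicle it ranged from 4 to 7 when a library was left out, against 6 reported, and was 8 with only the 2 groups compared. For doxorubicin plus formononetin against doxorubicin it ranged from 4 to 7 against 5, and for doxorubicin plus formononetin against vehicle it was 0 in every alternative. No called gene of the 28 changed direction. OGDH, IDH3B and IDH3G passed in all 17 alternatives with doxorubicin against vehicle, and these 3 with PDHA1 in all 17 for the combination against doxorubicin. The other calls were lost only when a library was left out. The labels do not say whether replicate numbers pair the libraries. Deviations from the group means correlated at -0.257 to 0.0531 for same-numbered libraries, and at -0.145 to 0.182 for others. Deviations from a mean of 3 libraries constrain each other, so these values cannot decide whether the numbers pair the libraries. With a replicate block, 6, 5 and 0 of the 28 were called in the 3 comparisons, the same genes as without it. Over all genes, calls for the combination against vehicle moved from 262 to 666 with DESeq2, 488 with no filter, 118 with only the 2 groups, 124 with the replicate block and 64 to 465 with a library left out. Leaving a library out gave 3316 to 6657 calls against 4947 for doxorubicin against vehicle. For the combination against doxorubicin it gave 2801 to 4436 calls against 4173. The cause was not tested. With a pseudocount of 5 CPM, no difference in log2 ratio between groups moved by more than the pooled SD of the ratios within the groups.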
